A study of Rattus norvegicus with 12 samples.

Results

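The genes described here are 38 genes of the smooth muscle, fibroblasts and extracellular matrix of the gut wall, measured in mucosal scrapes of rat intestine as a gauge of how deep the scrapes went. A gene entered through every probe set that carried its symbol alone and whose scaled signal averaged 100 or more across the 12 arrays. By that rule 36 of the 38 genes were kept, with 50 of their 67 probe sets, out of 10067 genes with 13501 such probe sets in the series. Lmod1 and Loxl1 did not reach the minimum, with means of 86.1 and 86.4. Just inside the limit were a probe set of Col6a3 at 103 and that of Eln at 104, and just outside were probe sets of Synpo2 at 98.1 and Tpm1 at 89.9. Since the limit used the mean over all arrays, a gene can have passed through 1 high array.

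The rats were of the Belgrade strain, which carries a recessive mutation of Slc11a2, which encodes the intestinal iron transporter DMT1. Homozygotes (b/b) are known to be anaemic, and heterozygotes (+/b), which carry the same allele in 1 copy, were the comparison. Both genotypes gave a duodenal and a jejunal scrape, so there were 4 groups of 3 arrays. Per the series design, each replicate was a group of rats that supplied both segments, so p-values measure the spread between such groups of animals. The labels do not name the group array by array, so the same replicate number was read as the same rat group. The main fit did not use this pairing. Age, sex and diet of the rats are not stated in the labels.

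The scraped mucosa is mostly epithelium, beneath which lie the lamina propria with its fibroblasts, the thin muscularis mucosae and, deeper, the muscle layers of the wall. Smooth muscle is known for its own actins, myosin heavy chain and actin-binding proteins such as transgelin, calponin and desmin. Fibroblasts lay down fibrillar collagens and small leucine-rich proteoglycans, whereas collagen IV forms the basement membranes under epithelium and around vessels. In bulk tissue, fewer cells of a type and less RNA per cell cannot be told apart.

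After scaling, the median signal of an array lay between 108 and 181. The arrays +/b duodenum 2 and 3 were deposited on a lower scale and were multiplied by 9.69 and 3.95. Epithelial markers differed in brightness: Fabp1, the fatty acid binding protein of enterocytes and the brightest of those measured, ranged from 30740 to 145000. Cdx1, the dimmest of them, ranged from 208 to 935. The array of +/b duodenum 2 stood apart in 9 pancreatic enzyme genes, whose summed signal was 129077 there and at most 6878 on any other array. The smooth muscle markers Acta2, Actg2, Tagln, Myh11, Cnn1 and Des and the fibroblast markers Col1a1, Col1a2, Col3a1, Dcn, Lum and Pdgfra all had measured probe sets.

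Promoter windows from RefSeq (assembly GRCr8, 250 bases before to 50 after each start) were found for 25 of the 38 genes, as 26 windows. They are shown for 4 genes described below: Lum and Postn, matrix genes with very low values on some arrays, Col4a1, which shares its promoter with another member, and Fhl1, a smooth muscle gene outside the 38 and the 1 context gene of muscle or matrix that passed a test.
Lum, chr7:34245456-34245755, plus strand: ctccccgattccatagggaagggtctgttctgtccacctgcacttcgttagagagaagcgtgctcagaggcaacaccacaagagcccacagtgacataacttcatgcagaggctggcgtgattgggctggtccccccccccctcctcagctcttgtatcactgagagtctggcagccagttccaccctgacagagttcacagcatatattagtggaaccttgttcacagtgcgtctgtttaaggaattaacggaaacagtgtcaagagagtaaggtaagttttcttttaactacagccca
Postn, chr2:140677811-140678110, plus strand, with TATAAA in capitals at bases -44 to -39: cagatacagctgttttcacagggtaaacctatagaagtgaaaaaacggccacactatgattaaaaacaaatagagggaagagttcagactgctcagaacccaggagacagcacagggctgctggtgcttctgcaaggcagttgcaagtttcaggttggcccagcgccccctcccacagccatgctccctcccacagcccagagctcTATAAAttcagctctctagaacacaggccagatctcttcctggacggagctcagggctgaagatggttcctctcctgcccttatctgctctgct
Col4a1, chr16:84885347-84885646, plus strand, with the stretch chr16:84885471-84885646 that also lies in the Col4a2 window in capitals: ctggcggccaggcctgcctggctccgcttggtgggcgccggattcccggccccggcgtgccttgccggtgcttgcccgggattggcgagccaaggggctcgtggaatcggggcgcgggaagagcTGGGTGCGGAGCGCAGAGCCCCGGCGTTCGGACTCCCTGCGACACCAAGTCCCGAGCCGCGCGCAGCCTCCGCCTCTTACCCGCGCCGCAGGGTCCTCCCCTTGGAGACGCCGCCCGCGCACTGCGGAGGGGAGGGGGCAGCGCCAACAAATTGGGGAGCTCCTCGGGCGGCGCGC
Fhl1, the first of its windows, chrX:139638246-139638545, plus strand, with a CArG box in capitals at bases -102 to -93 and TATAAA, read on the minus strand, in capitals at bases -156 to -151: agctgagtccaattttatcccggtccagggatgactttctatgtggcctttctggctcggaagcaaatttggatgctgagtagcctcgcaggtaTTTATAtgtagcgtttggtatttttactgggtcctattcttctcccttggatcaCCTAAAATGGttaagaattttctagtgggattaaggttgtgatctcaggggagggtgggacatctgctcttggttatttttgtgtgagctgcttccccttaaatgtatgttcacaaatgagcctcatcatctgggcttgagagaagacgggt

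Col4a1 and Col4a2, the 2 chains of the main basement membrane collagen, are read away from each other, and their windows overlapped by 176 bases. The motifs were searched on both strands. The CArG box is bound by serum response factor, the regulator of smooth muscle genes. It was counted only in its strict form, CCWWWWWWGG with W for A or T. That form was in 0 of the 26 windows and in 1.64% of 33469 windows of this length. The Acta2 window holds ccctatatgg and ccttgtttgg, each a letter off that form, and neither was counted. TATAAA was in 4 of the 26 windows (15.4%), those of Cald1, Col1a2, Postn and Vim, and in 14.2% of all windows. GGGCGG was in 13 of the 26 (50.0%) and in 33.1% of all. A CArG box may overlap either of the other motifs, and each was counted on its own. Another Fhl1 window, chrX:139645222-139645521, is not printed and held none of these motifs. A match describes the letters only. Members also neighboured each other in the genome: Dcn lay next to Lum and Col3a1 next to Col5a2 in the RefSeq gene order, besides Col4a1 and Col4a2.

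The 36 genes spread more over the arrays than the median probe set did. The highest array exceeded the lowest by a median of 5.24-fold over the genes, against 2.60-fold over all 17694 probe sets tested. Contractile genes had a median range of 3.72-fold, from 1.45-fold for Tpm1 to 8.78-fold for Smtn, and collagens one of 9.03-fold. No fold is given for Postn, which lay under 20 on 3 of the 12 arrays, since dim signals were not set against background. The median SD within groups was 0.63 on the log2 scale for the genes and 0.38 for all probe sets. Levels below are scaled signals, and changes are differences of log2(scaled signal + 16).

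**Figure D1:**
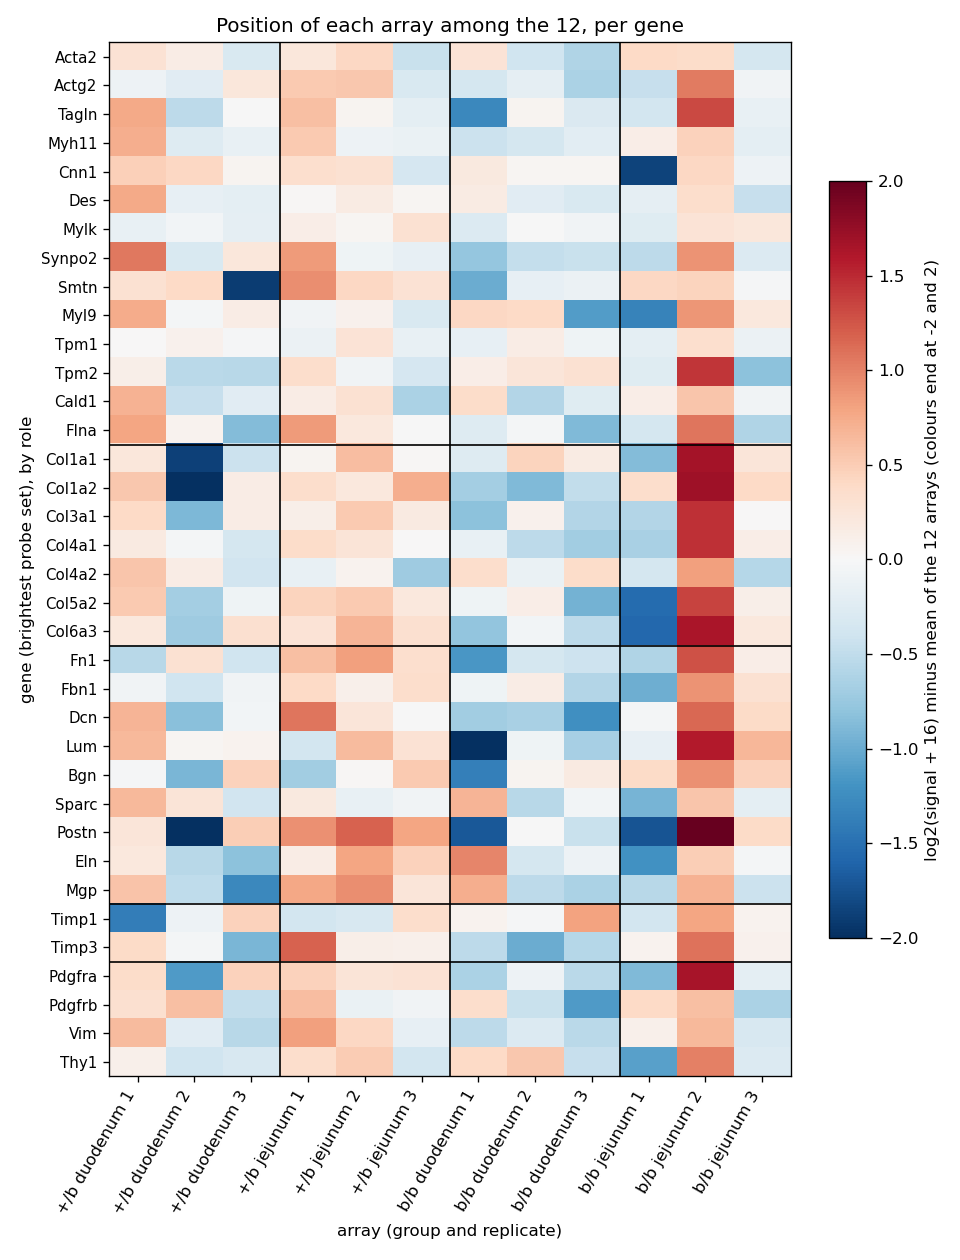
Each row is the brightest probe set of 1 of the 36 genes, ordered by role, each column is 1 of the 12 arrays, and the colour is log2(scaled signal + 16) minus the gene's mean over the 12 arrays. The column of b/b jejunum 2 is above the mean for 36 of 36 genes.

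One array of the b/b jejunum held the highest levels of these genes. On b/b jejunum 2, 21 of the 36 genes had their highest value of the 12 arrays (58.3%), while 6.63% of all probe sets did. The count was 7 of 7 for the collagens, 6 of 9 for the other matrix genes and 6 of 14 for the contractile genes. Postn is in these counts, though it reached the minimum only with this array. All 36 genes lay above their own 12-array mean there. The median deviation from that mean was 0.91, against 0.07 over all probe sets. It was 1.47 for collagens, 0.91 for other matrix genes and 0.50 for contractile genes.

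Col3a1, the fibrillar collagen of reticular fibres and the brightest collagen probe set, showed the shape of this. It measured 1170, 465 and 976 in +/b duodenum replicates 1 to 3 and 955, 1275 and 1000 in +/b jejunum. The b/b duodenum arrays read 491, 934 and 584, and the b/b jejunum arrays read 583, 2468 and 886. The 2468 of b/b jejunum 2 was 1.93 times the next highest array, and the other 11 arrays of the 4 groups overlapped. Relative to the median of the other 11 arrays, b/b jejunum 2 was 3.20-fold higher for Col1a1, 2.91-fold for Col4a1, 2.77-fold for Col6a3 and 2.01-fold for Col4a2, the least of the collagens.

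Pdgfra, the receptor that marks fibroblasts, read 1097 on that array and at most 474 on the others. Postn, the matricellular protein periostin, read 380 there and at most 205 elsewhere, but without that array its mean was 93.3, under the minimum of 100, so its value there supports nothing. Of the 50 probe sets, 2 reached the minimum only with that array, this one and the dimmer one of Col6a3. Contractile genes were raised less evenly. Tpm2, a tropomyosin, read 486 there and at most 220 elsewhere, and Tagln, transgelin, 564 and at most 376. Acta2, smooth muscle alpha-actin, read 1079, below the 1118 of +/b jejunum 2, and Myh11, smooth muscle myosin heavy chain, 1123, below the 1359 of +/b duodenum 1. The median ratio to the other arrays was 1.55 over the 14 contractile genes and 2.77 over the 7 collagens.

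Other matrix and fibroblast genes were high on the same array, while other smooth muscle genes were mixed. Of 39 other matrix and fibroblast genes measured (of 64 listed), 24 were highest on b/b jejunum 2, with a median deviation of 0.77. Of 21 other smooth muscle genes (of 33 listed), 8 were highest there, but their median deviation of 0.16 was close to the 0.17 of b/b duodenum 1 and the 0.15 of +/b jejunum 1. The 9 endothelial genes measured (of 15) had a median deviation of 0.53 and a summed signal of 2761, against 1126 to 2186 on the other arrays. Of these 9, 2 were highest there and 3 on b/b duodenum 1, and +/b jejunum 1 had a median deviation of 0.47. The 14 epithelial markers had a median deviation of -0.01 on that array, and their summed signal, 314072, lay inside the range of 202690 to 621347 over all arrays. In the b/b jejunum that sum was 464753, 314072 and 202690 in replicates 1 to 3. It fell from replicate 1 to 2 to 3 in every group. The part of the other cell types in the values of b/b jejunum 2 was not tested.

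The rest of the arrays lay closer together. The b/b jejunum 1 array had a median deviation of -0.36 and was the lowest of the 12 for 9 of the 36 genes, where 8.84% of all probe sets had their lowest value. Its groupmate b/b jejunum 3 had -0.05. The b/b duodenum arrays had -0.26, -0.12 and -0.46, the +/b duodenum arrays 0.38, -0.24 and -0.17, and the +/b jejunum arrays 0.35, 0.26 and 0.02. On +/b duodenum 1 the contractile genes stood out, with a median deviation of 0.59. There, 5 of the 14 contractile genes had their highest value (8.31% of all probe sets did): Myh11, Cnn1, Des, Synpo2 and Cald1.

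**Figure D2:**
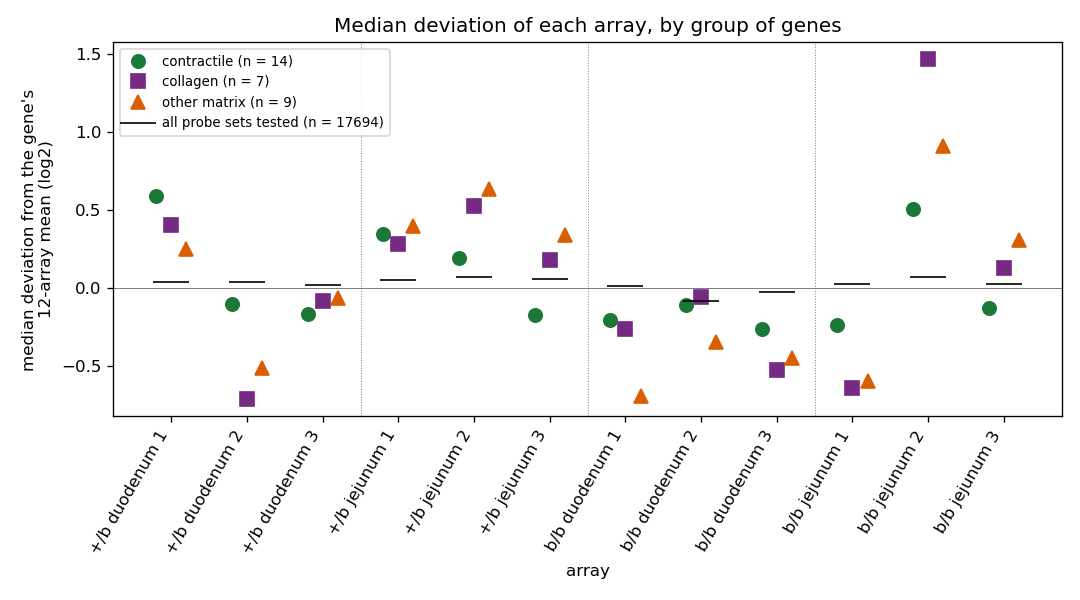
For each of the 12 arrays, the symbols give the median deviation from the gene's own 12-array mean, in log2 units, over the 14 contractile genes, 7 collagens and 9 other matrix genes, and the bar gives it over all probe sets tested. The medians of collagens and other matrix genes are highest on b/b jejunum 2 (1.47 and 0.91). That of contractile genes is 0.59 on +/b duodenum 1 and 0.50 on b/b jejunum 2. More single contractile genes had their highest value on b/b jejunum 2 (6 of 14, against 5 on +/b duodenum 1).

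Between genotypes in the duodenum, no muscle or matrix gene passed the test. With limma over all 17694 probe sets, 0 of the 50 probe sets had an adjusted p under 0.05, where 0.0396% of all probe sets did. The smallest adjusted p was 0.79, and at an unadjusted p under 0.05 there were 0 higher and 2 lower (2.5% and 3.67% of all probe sets). The log2 change of b/b against +/b lay below 0 for 28 of 36 genes and had a median of -0.25, against -0.05 over all probe sets, of which 44.5% lay above 0. Medians were -0.27 for contractile genes, -0.21 for collagens and -0.22 for other matrix genes. Without each array in turn the median of the 36 genes ran from -0.38 to -0.06, and without both arrays deposited on another scale it was -0.72. Red cell genes moved with the genotype: the summed signal of 3 of them was 12414 to 17530 in b/b and 1899 to 3507 in +/b duodenum. The median change was -0.59 over 10 crypt and cell cycle genes, 9 below 0, and -0.15 over 14 epithelial genes, 12 below 0. It was -1.07 over 9 pancreatic enzyme genes, 9 below 0, with +/b duodenum 2 far above the rest. Their summed signal was 1088 to 129077 in +/b duodenum, the 129077 on replicate 2, and 1210 to 6878 in b/b duodenum. The part of these cell types in the result was not tested. The standard error of a single gene was 0.46 at the median, so changes of the size of these medians were not detectable gene by gene.

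In 3 of the 36 genes the b/b and +/b duodenum arrays did not overlap, 1 higher and 2 lower, where 3.18% and 5.53% of all probe sets were so. Lum, the collagen-binding proteoglycan lumican, measured 263, 167 and 171 in +/b and 12.6, 151 and 95.6 in b/b duodenum. All 3 b/b arrays lay below all 3 +/b arrays, b/b duodenum 1 by far the lowest. The log2 change was -1.39 ± 0.59 (SE, n = 3 per group, limma adjusted p = 0.79), and without b/b duodenum 1 it was -0.64.

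Synpo2, an actin-bundling protein of muscle, measured 348, 126 and 188 in +/b duodenum and 86.7, 111 and 112 in b/b duodenum. The b/b arrays were lower, by a narrow margin to the lowest +/b array, and the change was -0.89 ± 0.45 (limma adjusted p = 0.80). The dimmer Synpo2 probe set overlapped, with 82.7, 131 and 107 against 150, 62.45 and 59.8, a change of -0.28. Tpm2 went the other way, with 185, 111 and 110 in +/b and 187, 204 and 213 in b/b duodenum. Its lowest b/b and highest +/b values almost met, and the change was 0.55 ± 0.47 (limma adjusted p = 0.87).

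In the jejunum the genotype comparison rested on b/b jejunum 2. With limma, 0 of 50 probe sets were called (0.0339% of all), 0 had an unadjusted p under 0.05 (1.34% of all), and for 0 of 36 genes were the groups separate (7.90% of all). The median change of b/b against +/b was -0.06 with 16 of 36 genes above 0, against -0.03 and 45.5% for all probe sets. Without b/b jejunum 2 the median was -0.47, with 3 of 36 genes above 0, and for the collagens -0.55 with 0 of 7. Without b/b jejunum 1 it was 0.24, with 28 of 36 above 0. The direction of the jejunal difference thus turned on which array of 3 was left out.

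Between jejunum and duodenum of +/b rats no gene was called, and the medians of the matrix genes lay further from 0 than that of the contractile genes. With limma, 0 of 50 probe sets were called (0.0565% of all), the smallest adjusted p was 0.93, and 0 had an unadjusted p under 0.05 (5.36% of all). The median change was 0.30 over the 36 genes, 25 of them above 0, against 0.05 and 56.6% for all probe sets. It was 0.01 for the contractile genes, 7 of 14 above 0. It was 0.48 for collagens, 6 of 7, and 0.51 for other matrix genes, 7 of 9. Postn and Eln, counted among these other matrix genes, averaged 97.9 and 92.5 without the +/b jejunum arrays, under the minimum of 100. They passed only with the group where they were high and support nothing here. The order of the roles was not tested. Over the +/b arrays of both segments the median change was 0.43 for 10 crypt and cell cycle genes, 10 above 0. It was 0.36 for 9 leukocyte genes, 8 above 0, and -2.63 for 9 pancreatic enzyme genes, 9 below 0. The summed pancreatic signal was 1088 to 129077 in +/b duodenum, the 129077 on replicate 2, and 1132 to 1553 in +/b jejunum. The part of these cell types was not tested. Without the 2 arrays deposited on another scale, which leaves +/b duodenum with 1 array, the median of the 36 genes was -0.12.

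The 3 jejunal arrays lay above the 3 duodenal ones for 4 of the 36 genes, Postn, Fn1, Fbn1 and Mylk, and below for 0 (6.10% and 4.71% of all probe sets). Postn measured 99.7, 6.1 and 121 in +/b duodenum and 168, 205 and 153 in +/b jejunum. Replicate 2 of the duodenum, an array deposited on a lower scale, was close to 0, and the change was 1.43 ± 0.88 (SE, n = 3 per group, limma adjusted p = 0.94). Without the 3 +/b jejunum arrays its mean was 97.9, so Postn passed the minimum only with the group where it was high and supports nothing here. Fn1, fibronectin, measured 179, 341 and 202 in +/b duodenum and 423, 493 and 348 in +/b jejunum, a change of 0.81 ± 0.42 (limma adjusted p = 0.93). The highest duodenal and lowest jejunal array differed little.

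Fbn1, the microfibril protein fibrillin, measured 242, 189 and 243 in +/b duodenum and 340, 273 and 327 in +/b jejunum, a change of 0.46 ± 0.39 (limma adjusted p = 0.97). The dimmer Fbn1 probe set overlapped, with 239, 160 and 172 against 218, 329 and 173. Mylk, the myosin light chain kinase that starts smooth muscle contraction, measured 3526, 3787 and 3446 in +/b duodenum and 4288, 4037 and 4820 in +/b jejunum. The groups were narrow and separate, and the change was 0.28 ± 0.18 (limma adjusted p = 0.94). The dimmer Mylk probe set did not follow, with 159, 259 and 211 against 275, 202 and 112.

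**Figure D3:**
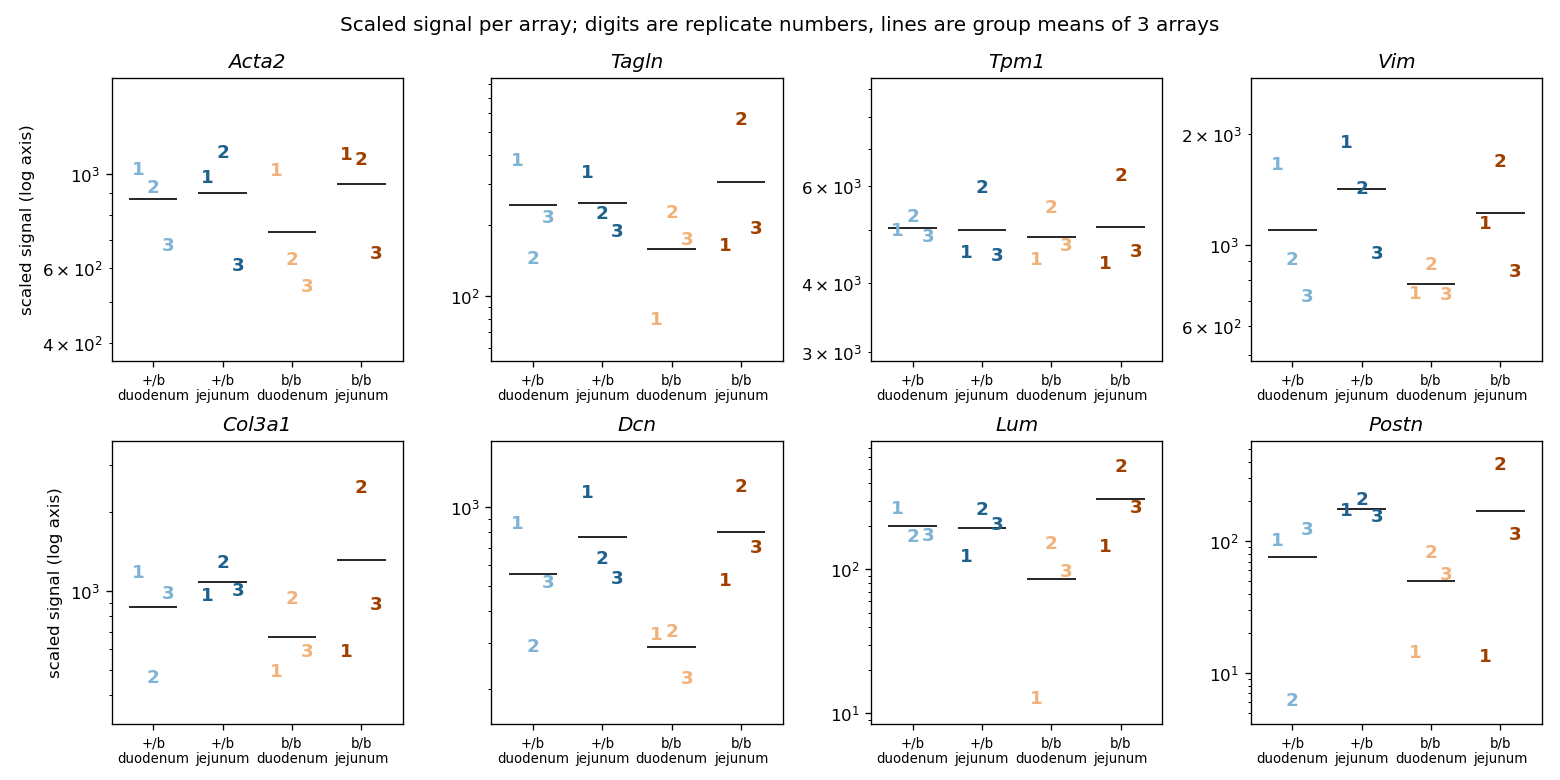
Scaled signals on log axes for 8 of the genes, with the 4 groups side by side, digits for the replicate numbers and lines for group means of 3 arrays. Tpm1 stays between 4331 and 6259 on all 12 arrays, while replicate 2 of the b/b jejunum is the highest array for Tagln, Col3a1, Dcn, Lum and Postn.

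In b/b rats most of the genes had higher mean levels in the jejunum than in the duodenum, though none passed the test. The median change was 0.45, with 29 of 36 genes above 0, against 0.07 and 58.1% for all probe sets. It was 0.37 for contractile genes, 0.55 for collagens and 0.91 for other matrix genes. With limma 0 of 50 probe sets were called (0.763% of all), the smallest adjusted p was 0.21, while at the unadjusted level of 0.05 there were 8, all higher (6.26% of all were). Without b/b jejunum 2 the median was 0.08 with 19 of 36 above 0, and for the collagens -0.22 with 3 of 7 above 0. Markers of other cells were compared over the same arrays: the median change between the b/b segments was 0.87 over 10 crypt and cell cycle genes, 9 above 0, 0.40 over 9 endothelial genes, 7 above 0, 0.29 over 9 leukocyte genes, 7 above 0, and -0.07 over 14 epithelial genes, 5 above 0. Their part in the result was not tested.

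The 3 jejunal arrays of b/b rats lay above the 3 duodenal ones for 6 genes and below for 0, where 9.53% and 5.30% of all probe sets did. Dcn, the proteoglycan decorin that decorates collagen fibrils, measured 323, 332 and 219 in b/b duodenum and 519, 1195 and 695 in b/b jejunum. All jejunal values were above all duodenal ones, and the change was 1.35 ± 0.40 (SE, n = 3 per group, limma adjusted p = 0.21). Without b/b jejunum 2 the change was 1.03 ± 0.42 (limma adjusted p = 0.65). In the same segments of +/b rats Dcn measured 860, 289 and 512, then 1135, 630 and 530, which overlapped.

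With the group of rats, read from the replicate number, as a block, 2 of the 50 probe sets were called in b/b rats (2.44% of all probe sets were). The block uses that each group supplied both segments. Dcn rose by 1.35 ± 0.26 (limma adjusted p = 0.021) and Lum by 1.83 ± 0.39 (limma adjusted p = 0.033). Treating rat groups as a random effect instead, 1 was called (1.98% of all), Dcn, with a limma adjusted p of 0.042 against 0.061 for Lum. With rat group 2 of the b/b genotype left out of the block fit, not the random-effect fit, 0 were called (0.571% of all). The limma adjusted p was then 0.23 for Dcn and 0.22 for Lum. With rat group 3 left out 0 were called (0.938%), and with rat group 1 left out 3 were called (2.28%): Dcn, Col4a1 and the dimmer probe set of Cald1. Lum measured 12.6, 151 and 95.6 in b/b duodenum and 142, 516 and 265 in b/b jejunum, so it was higher in the jejunum of each rat group, while the groups overlapped.

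Col1a2, a chain of type I collagen, measured 95.9, 81.8 and 112 in b/b duodenum and 214, 566 and 221 in b/b jejunum, a change of 1.50 ± 0.61 (limma adjusted p = 0.41). The groups did not overlap, and with each array left out in turn the change of Col1a2 ran from 1.06 to 1.73. Its dimmer probe set gave 0.83 ± 0.38 with overlap. Timp3, a matrix-bound inhibitor of metalloproteinases, measured 108, 74.1 and 105 in b/b duodenum and 171, 361 and 174 in b/b jejunum, a change of 1.10 ± 0.43 (limma adjusted p = 0.39). Its dimmer probe set separated the groups as well, with 1.43 ± 0.52.

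Bgn, the proteoglycan biglycan, measured 69.8, 214 and 236 in b/b duodenum and 274, 400 and 289 in b/b jejunum, a change of 0.96 ± 0.46 (limma adjusted p = 0.53). Smtn, the smooth muscle protein smoothelin, measured 126, 234 and 245, then 360, 365 and 262, a change of 0.70 ± 0.50 (limma adjusted p = 0.73). In both, the lowest jejunal array lay just above the highest duodenal one. Myh11 was the other gene without overlap, with 603, 636 and 699, then 899, 1123 and 714, a change of 0.47 ± 0.28 (limma adjusted p = 0.65).

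**Figure D4:**
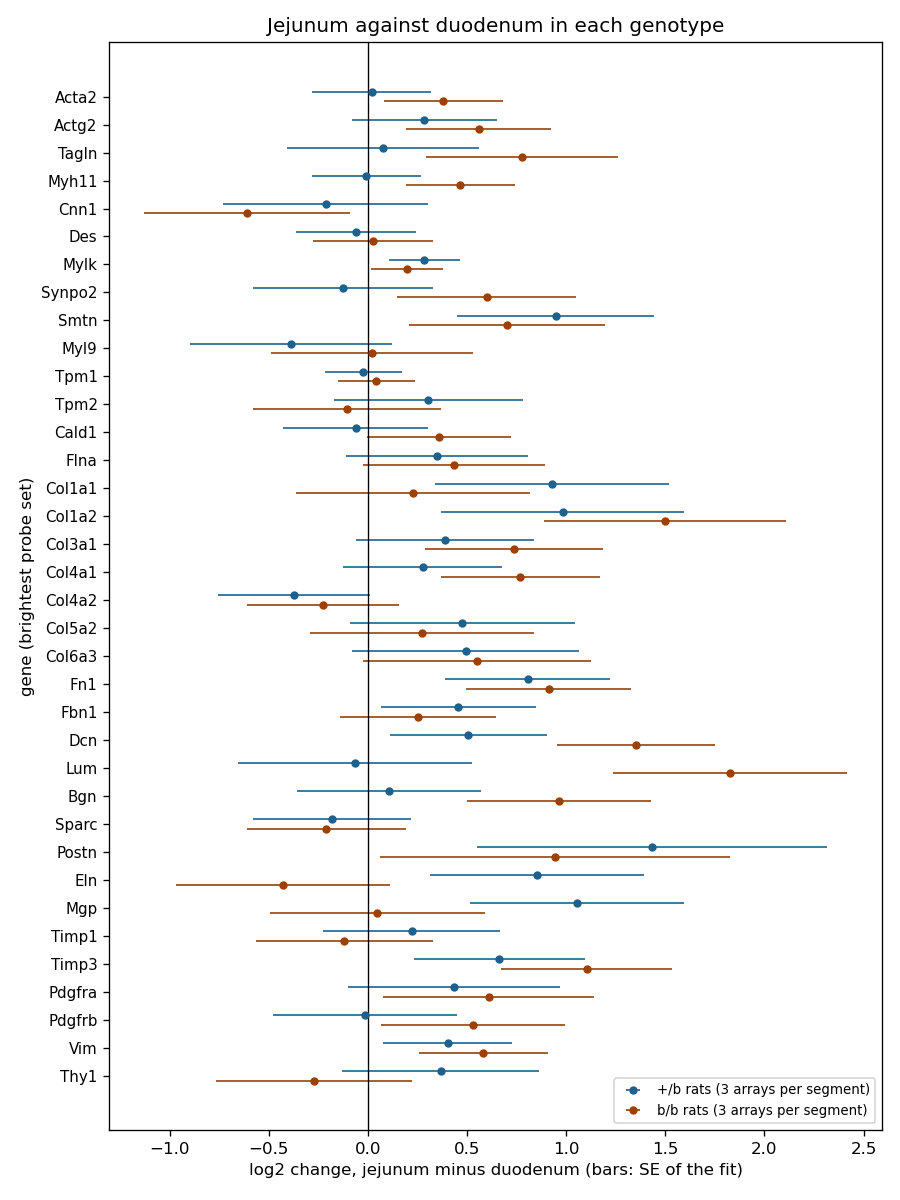
Log2 change from duodenum to jejunum, with its standard error, for the brightest probe set of each of the 36 genes in +/b and b/b rats (3 arrays per segment). The values lie above 0 for 25 genes in +/b and 29 genes in b/b rats, and none passed the adjusted threshold.

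Taken by rat group, the 2 segments differed unevenly. Of the 3 b/b pairs, pair 2 had 36 of 36 genes higher in the jejunum (62.6% of all probe sets) with a median difference of 1.13. Pair 1 had 15 of 36 (51.0% of all) with a median of -0.10, and pair 3 had 29 of 36 (53.2%) with 0.26. The +/b pairs had 18, 31 and 24 of 36 higher (51.3%, 52.5% and 53.9% of all), with medians of 0.00, 0.50 and 0.22. The jejunum was higher in every pair for 13 genes in +/b rats (18.4% of all probe sets) and 15 genes in b/b rats (23.4%). It was lower in every pair for 2 genes in +/b rats, Cnn1, the actin-binding protein calponin, and Col4a2 (13.9%), and for 0 in b/b rats (14.6%).

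For the interaction, the difference of the genotype effect between the segments, 0 of 50 probe sets were called with limma (0.0% of all) and 1 had an unadjusted p under 0.05 (1.73% of all). That was Lum, at 1.89 ± 0.84 (unadjusted p = 0.040, limma adjusted p = 1.00). The median over the genes was 0.13, with 23 of 36 above 0 (52.0% of all probe sets), and without b/b jejunum 2 it was -0.21, with 11 of 36 above 0.

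**Figure D5:**
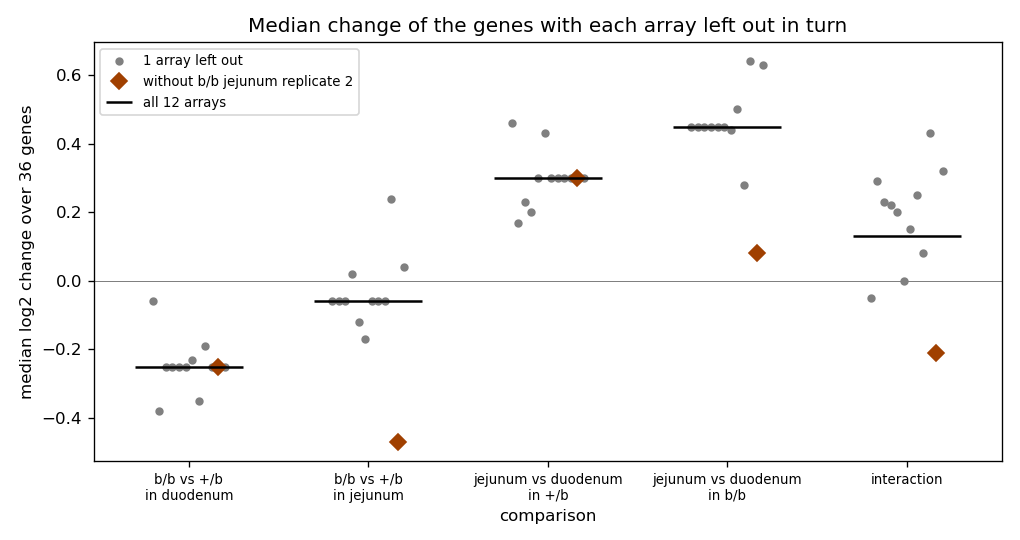
Median log2 change over the 36 genes for the 5 comparisons, with all 12 arrays (lines), with each array left out in turn (points) and without b/b jejunum 2 (diamonds). The b/b against +/b median in the jejunum falls between -0.47 and 0.24, on both sides of 0.

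The brightest gene of each role is given here where it was not given above. Tpm1, a tropomyosin that many cell types express, ranged from 4331 in b/b jejunum 1 to 6259 in b/b jejunum 2 around group means of 5027 ± 221, 4992 ± 837, 4850 ± 557 and 5046 ± 1056 (SD, n = 3, in +/b duodenum, +/b jejunum, b/b duodenum and b/b jejunum). Its group means differed by less than the spread within the groups. Vim, the vimentin of mesenchymal cells and leukocytes, measured 1649, 909 and 721 in +/b duodenum and 1888, 1417 and 944 in +/b jejunum. The b/b duodenum arrays read 733, 881 and 727, and the b/b jejunum arrays read 1139, 1673 and 844. Replicate 3 was the lowest array of its group in all 4 groups for Vim, Acta2 and Flna, which crosslinks actin (3 of 36 genes and 6.58% of all probe sets).

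Timp1, a secreted metalloproteinase inhibitor and the brightest of the enzymes and inhibitors, measured 82.9, 225 and 339 in +/b duodenum and 183, 189 and 312 in +/b jejunum. In b/b rats it measured 254, 238 and 433, then 184, 429 and 255, and all 4 groups overlapped. Acta2 measured 1020, 927 and 676 in +/b duodenum, 979, 1118 and 608 in +/b jejunum, 1016, 627 and 543 in b/b duodenum and 1107, 1079 and 647 in b/b jejunum. The groups of Acta2 overlapped in every comparison. Eln, the elastin of elastic fibres, ran from 31.3 to 199, Mgp, an inhibitor of calcification, from 40.4 to 245, and Thy1, a surface protein of fibroblasts and T cells, from 58.0 to 302.

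Several genes were read by more than 1 probe set, and these did not always move alike. Of 12 genes with at least 2 tested probe sets, the probe sets differed in the sign of the change for 3 genes in the duodenal and 8 in the jejunal genotype comparison. They differed for 6 genes between the segments in +/b rats, 2 in b/b rats and 6 in the interaction. For Cald1, the thin-filament protein caldesmon, the brighter probe set ranged from 182 to 483 and the dimmer from 79.9 to 643. The dimmer passed the test between segments of b/b rats without b/b jejunum 1 (2.05 ± 0.40, limma adjusted p = 0.046).

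Of the other smooth muscle genes, 1 of 21 was called in a comparison, that between the b/b segments, where 0.763% of all probe sets were. Fhl1, a LIM protein of muscle with a promoter window printed above, rose from 599, 714 and 633 in b/b duodenum to 1036, 2128 and 1690 in b/b jejunum. The segments did not overlap, and the change was 1.24 ± 0.25 (SE, n = 3 per group, limma adjusted p = 0.037). Its dimmer probe set read 38.5, 4.23 and 47.9 before and 296, 447 and 307 after the same step (3.12 ± 0.50, limma adjusted p = 0.0091). Without b/b jejunum 2 the limma adjusted p was 0.24 and 0.080. That of the brighter probe set also ran from 0.060 to 0.15 when b/b jejunum 3, any b/b duodenum array or any +/b jejunum array was left out. In +/b rats the brighter probe set read 1057, 617 and 843 in duodenal scrapes and 1219, 1309 and 1177 in jejunal ones, which was no call. Fhl1 and the median of the list did not go together. The median change of the 21 genes between the b/b segments was 0.03, with 12 above 0 (58.1% of all probe sets).

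Of the 39 other matrix and fibroblast genes, 34 had a change above 0 between the b/b segments (58.1% of all probe sets), with a median of 0.34. With limma 0 were called (0.763% of all). At an unadjusted p under 0.05 there were 10, all higher (6.26% of all were), and the smallest adjusted p was 0.11. That gene was Prelp, a proteoglycan of basement membranes, with 19.6, 25.8 and 25.5 in b/b duodenum and 128, 155 and 141 in b/b jejunum. Its mean over the 12 arrays was 102, and 89.4 without the b/b jejunum, so Prelp passed the minimum only with the group where it was high and its change of 1.99 ± 0.49 supports nothing. Ltbp4, a latent TGF-beta binding protein, measured 106, 187 and 162, then 300, 973 and 332, a change of 1.54 ± 0.44 (limma adjusted p = 0.19).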

How the data were processed

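The values deposited by the authors were linear intensities of probe sets on 12 arrays, and MAS5 is named for 10 of them, per the submitters' processing notes. Version and settings: not given in the sources used here. Trizol, a purification column and biotin labelling were used, per the labels' protocols. The deposited 2% trimmed mean was 500.2 on 10 arrays but 51.6 and 126.6 on +/b duodenum 2 and 3. Here every array was scaled to 500, which multiplies the noise of dim probe sets as well. After removal of 57 controls from 31099 probe sets, those with a mean of at least 100 (17694) were tested. No detection calls were used.

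Tests used log2(scaled signal + 16), which understates changes of dim genes, in limma 3.58.1 (R 4.3.3): 4 group means, eBayes with trend, two-sided p adjusted by Benjamini-Hochberg over all probe sets, threshold 0.05. A gene is its brightest probe set unless stated. The members and the context lists were chosen with earlier results of these data known. Members given in all arrays were those called, up to 5 per direction and comparison whose groups did not overlap, and the brightest of each role. Of each context list, called genes and otherwise those of largest change were named. Other members given values, such as Acta2, Pdgfra, Tagln, Myh11 and Cald1, were chosen after their values were seen.

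Same-numbered arrays of a genotype were read as 1 group of rats from the series design, which the labels do not state array by array. Their deviations correlated at 0.19 to 0.28 (+/b) and 0.16 to 0.38 (b/b). Same-numbered arrays of different genotypes, which came from different rats, did so at -0.06 to 0.45. That range takes in those of both sets of rat groups, so these correlations do not set the rat groups apart. In simulated data for the duodenal genotype comparison (17694 probe sets), changes of 1, 2 and 4 on the log2 scale were recovered in 11.9%, 76.1% and 95.5% of cases, with 9 false calls. Gene IDs of 36 of 36 members were found in the RefSeq gene table.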

Additional observations from a re-analysis of the deposited data

How the results depend on the processing

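Scaling, pseudocount, filter, blocks, array weights and each array left out in turn were varied. Of the counts and medians over the genes, 250 values under the alternatives stayed, 9 medians moved further and 6 counts were higher. Staying meant an unchanged count, or a median within 0.39, the SD between replicate arrays. That margin is wider than most of the medians, so it takes in changes of sign and does not show that the medians are stable. Without b/b jejunum 1, the jejunal genotype median went from -0.06 to 0.24 and counted as stayed. On the deposited values without rescaling, the medians were 1.20 for the genotypes in the duodenum, 1.78 for the segments in +/b rats and -1.35 for the interaction. Between those segments 32 of 50 probe sets were called, where 8662 of all 17694 were called higher and 11 lower. The medians of all probe sets moved alike, to 1.51, 1.60 and -1.55, and the change of Synpo2 reversed to 0.44. Without the 2 arrays on another scale, where the lone +/b duodenum array is assumed to vary like the others, the medians were -0.72, -0.12 and 0.60. With each array left out, they ranged from -0.38 to -0.06 and from -0.47 to 0.24 for the genotypes in duodenum and jejunum, from 0.17 to 0.46 and from 0.08 to 0.64 for the segments in +/b and b/b rats, and from -0.21 to 0.43 for the interaction. Between the b/b segments 0 to 1 probe sets were then called, the 1 being Cald1 without b/b jejunum 1 (0.492% of all).

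With the replicate block, 2 probe sets were called between the b/b segments (2.44% of all). With the rat group as a random block or with array weights 1 was called, Dcn in both (limma adjusted p 0.042 and 0.027). Of all probe sets, 1.98% and 3.63% were called in these fits. After the data were seen, both arrays of 1 b/b rat group were left out of the replicate block. Without pair 1, 3 probe sets were called (2.28% of all) and the jejunal genotype median was 0.39, and without pair 2 that median was -0.53. The block changed no other call among the genes. Fhl1's brighter probe set lost its call with median scaling (limma adjusted p = 0.31), without rescaling (1.00) and when any 1 of 8 arrays was left out, and its dimmer one without b/b jejunum 2. For the settings that moved a value, causes other than the arrays left out or the scale of the 2 arrays were not tested. With 3 arrays a group, changes of 1 on the log2 scale are mostly out of reach, and dim signals were not set against background.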
